A study of Mus musculus with 8 samples.

Results

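CGRP-n is 1 of 20 clusters of cells that the study's authors distinguished in mouse dorsal root ganglia, the ganglia that hold the cell bodies of the body's sensory neurons. It is described here through the 1565 genes that the authors' deposited table lists for it, of 9229 genes listed for any cluster. Members were taken by the cluster's name alone, and no label explains the "n" in that name. The ganglia came from C57BL/6 mice between 21 and 30 days old, with 4 mice pooled per sample, and the labels name no transgene or drug. Freshly dissociated living cells were exposed to an antibody against proteasome subunit β5 (30 min) and then to a fluorescent second antibody (40 min). Sorting then separated cells that carried the label at their surface (NMP-positive, after the neuronal membrane proteasome) from those that did not (NMP-negative). The labels list 4 NMP-positive and 4 NMP-negative samples, which are sequencing lanes of 1 droplet library per population, and the extraction protocol cites an isolation of nuclei, so whether cells or nuclei were sequenced is not given. The table pools both populations, so CGRP-n was not compared between them.

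Peptidergic neurons are sensory neurons that release neuropeptides such as CGRP and substance P at their endings, and many of them are nociceptors, which respond to damaging stimuli. Most have thin unmyelinated axons and conduct slowly, but some have thinly myelinated Aδ axons, conduct faster and are known for fast mechanical or heat pain. Such fast fibres need a wide axon built on neurofilaments and, at the gaps in the myelin, clusters of ion channels held by anchoring proteins.

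For every gene and cluster the table holds an averaged log2 fold change, cluster over the remaining cells, and the share of cells with the transcript on each side. A gene is called higher or lower below where the deposited adjusted p-value was under 0.05, by the sign of the fold change, always against all other cells. The clusters had been formed on the same cells, so these calls describe CGRP-n and test nothing. Entries reach an absolute log2 fold change of 0.25, 10.0% of cells on at least 1 side and a p of no more than 0.01. A gene missing for a cluster failed at least 1 of these limits and is called not listed, never absent. Neither the depth per cell nor the number of cells is given, so no interval stands beside a share. The share of all cells in each cluster was solved from the deposited shares. It came to 3.79% for CGRP-n, which was 22.1% of the 4 clusters named CGRP and 9.29% of the 10 clusters named as neurons. Over the 77 genes listed for all 10 of these, the median share of cells with a transcript in the authors' deposited table was 94.3% in CGRP-n, 92.2 to 95.3% in CGRP-a, CGRP-e and CGRP-z, and 29.0 to 89.6% in the other 6. The other cells also take in 3 clusters named for few transcript molecules (Low.UMI) and 7 named Unknown, and the part of depth in the gains of CGRP-n was not tested.

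Of the 1565 genes, 887 were higher (56.7% of those listed and 9.61% of the table) and 399 were lower (25.5% and 4.32%), while 279 were not past the filter. The shares of the table stand beside the list counts below. Every one of the 887 higher genes was also in a larger share of CGRP-n cells than of other cells in the authors' deposited table, with medians of 97.0% and 39.8%. Their folds were mostly small, with a median log2 fold change of 0.42, 572 genes under 0.5 and 56 at 1 or more. The lower genes had a median log2 fold change of -0.37, and 321 of the 399 were nevertheless in a larger share of CGRP-n cells, with medians of 74.8% and 39.2% in the authors' deposited table. Among the lower genes, a smaller share of cells was given for 78.

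**Figure D1:**
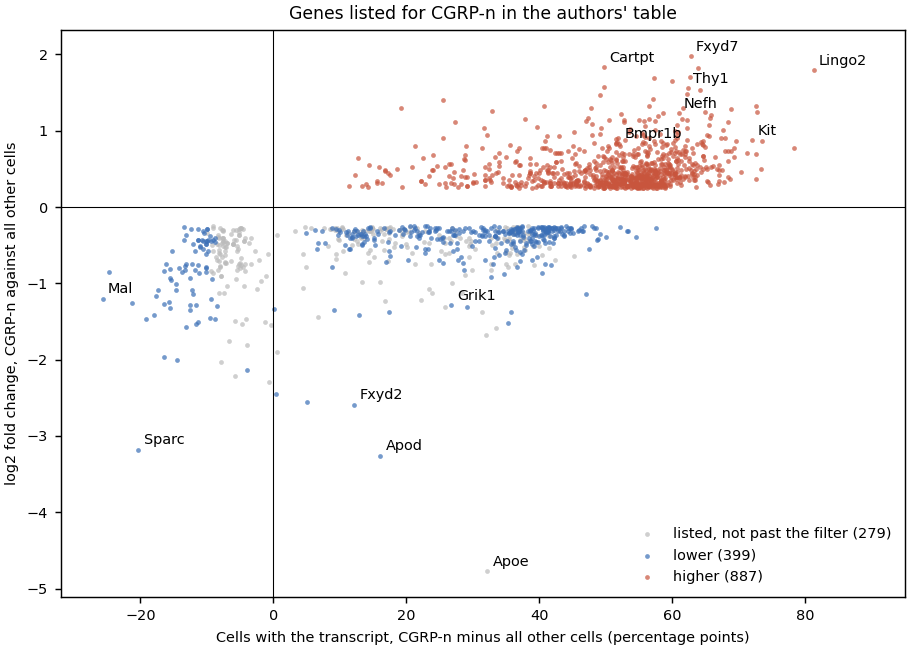
Each point is 1 of the 1565 genes listed for CGRP-n, placed by the percentage points of cells with the transcript gained or lost against all other cells (x axis) and by the deposited log2 fold change (y axis); red marks the 887 higher, blue the 399 lower and grey the 279 genes not past the filter. All red points lie to the right of 0, up to Lingo2 with 81.3 percentage points, and 321 of the blue points do too.

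The 4 markers of the label were all higher. They were read in the same cells that formed the cluster, so this is no independent check of the label. Fxyd7, which codes for a small regulator of the sodium pump, had the largest fold change of the cluster in the authors' deposited table (log2 fold change 1.98, in 98.3% of CGRP-n cells and 35.5% of other cells). Cartpt, the gene of the CART peptide, followed in the authors' deposited table (1.83, 73.2% and 23.5%). Kit, the receptor of stem cell factor, was at 0.88, in 96.3% of CGRP-n cells and 24.2% of other cells in the authors' deposited table. Bmpr1b, a type I receptor for bone morphogenetic proteins (BMPs), was at 0.83, in 55.4% and 3.4% in the authors' deposited table. Of these markers Bmpr1b picked out CGRP-n best. An estimated 39.1% of all cells with its transcript were CGRP-n cells, against 13.5% for Kit, 10.9% for Cartpt and 9.83% for Fxyd7, computed from the deposited shares.

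The other 3 markers were shared with the most similar clusters, each along a different line. Fxyd7 was higher in CGRP-a too (1.29, in 99.5% of its cells in the authors' deposited table) and not listed for CGRP-e. Cartpt went the other way, higher in CGRP-e (1.84, 87.0%) and not listed for CGRP-a in the authors' deposited table. Cartpt was higher in CGRP-z as well. For Kit the authors' deposited table gave 0.97 in CGRP-a and 0.87 in CGRP-e, and CGRP-z had no entry. Bmpr1b was listed for 1 other cluster, Unknown.5 (0.64, in 16.8% of its cells) in the authors' deposited table. No cluster but CGRP-n had all 4 as higher genes.

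**Figure D2:**
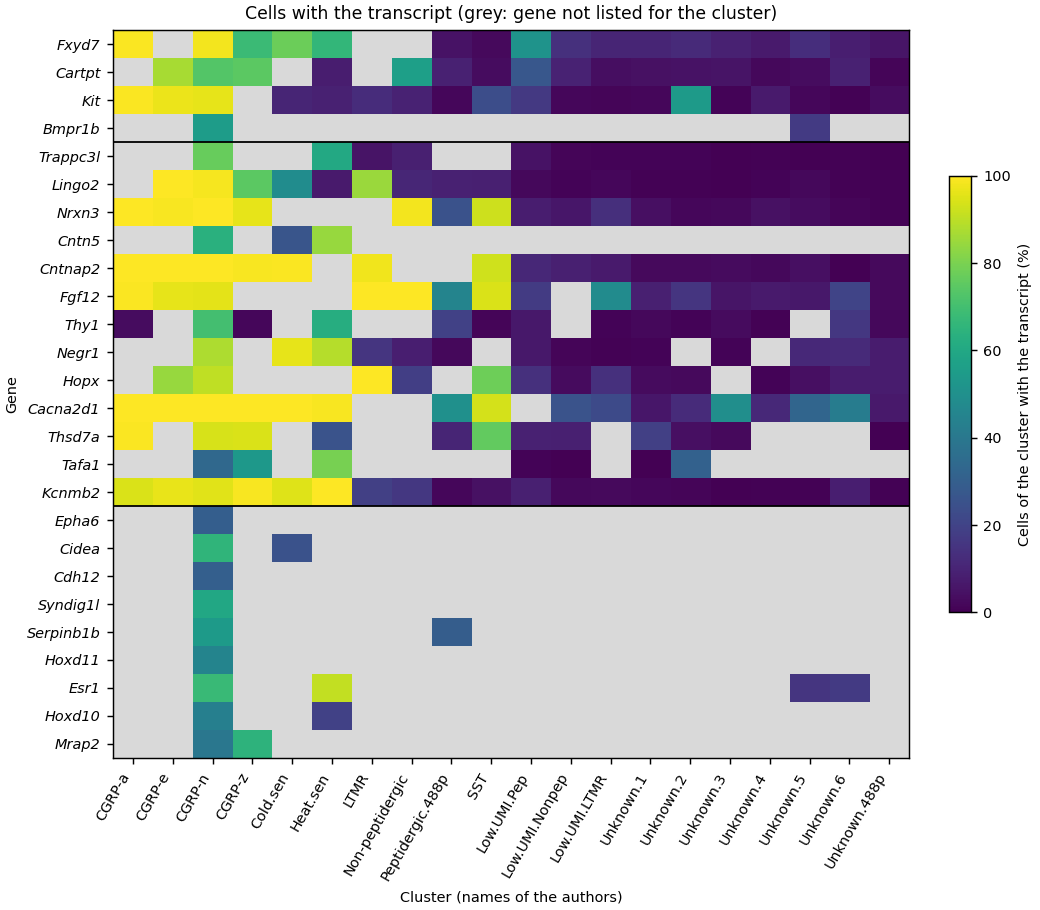
Colour gives the percentage of a cluster's cells with the transcript for the 4 markers (top block), the other genes of largest fold change in CGRP-n (middle) and those whose transcript-positive cells lay most in CGRP-n (bottom), in all 20 clusters; grey marks pairs that are not listed. Most of the bottom block is grey outside the CGRP-n column, with exceptions such as Esr1 in Heat.sen (90.8%) and Mrap2 in CGRP-z (64.5%), while Kit, Nrxn3 and Cntnap2 are also bright in CGRP-a and CGRP-e.

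A list of genes known from myelinated peptidergic neurons, which contains 3 of the 4 markers, had 8 members in the table, and all 8 were higher in CGRP-n. It was drawn up with these results known and is no independent evidence. The median log2 fold change of the 8 was 1.05, beside 0.28 for all genes listed for CGRP-n. In CGRP-a 3 were higher, in CGRP-e 4 and in CGRP-z 2, where 12.5%, 9.77% and 11.3% of all genes of the table were higher and 7.26%, 5.65% and 0.715% lower. Beyond the markers they included Nefh, the heavy neurofilament subunit of wide axons, S100b, a calcium-binding protein found in many myelinated sensory neurons, Calca, which codes for CGRP, and Tafa1, a secreted protein. S100b was in 50.7% of CGRP-n cells and 17.8% of other cells in the authors' deposited table (1.26), and lower in CGRP-a, where 11.0% of cells had it (-0.65). Besides CGRP-n, S100b was higher only in Unknown.2 and Unknown.4, which are not named as neurons. Tafa1 was in 33.6% of CGRP-n cells against 8.1% in the authors' deposited table (1.40), and in 79.6% of Heat.sen cells. Besides CGRP-n and Heat.sen, Tafa1 was higher in CGRP-z and Unknown.2. Genes of unmyelinated peptidergic neurons were higher as well. Of 11 in the table, 8 were higher and Ret, the receptor component for GDNF-family factors, was lower.

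Markers of other neuron classes were higher in CGRP-n in 0 to 2 genes of each list, beside 9.61% of all genes of the table. Of 9 genes of the large A-fibre touch and position-sense neurons in the table, Nefh and Cntnap2 were higher and the other 7 were not listed. Among 9 genes of Mrgprd neurons none was higher, 2 were lower and 2 were not past the filter, and Mrgprd itself was in 5.4% of CGRP-n cells and 10.7% of other cells in the authors' deposited table. None of 6 genes of cold-sensing neurons was listed, and of 5 genes of Mrgpra3 itch neurons 1 was listed without passing the filter. Th touch neurons contributed Piezo2 as their 1 higher gene of 9, and Sst itch neurons contributed Ptgir, a prostacyclin receptor, as theirs of 10.

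Peptide genes were the first functional group. Of 12 neuropeptide and hormone genes in the table, 6 were higher in CGRP-n, none was lower and 6 were not listed, with a median of 0.95 among the 6 listed. In CGRP-a 5 were higher, in CGRP-e 8 and in CGRP-z 3. After Cartpt came Adcyap1, the gene of the peptide PACAP (1.21, in 99.7% of CGRP-n cells and 33.9% of other cells in the authors' deposited table), and Tac1, which codes for substance P (1.11, 98.0% and 70.6%). Calca was in 100% of CGRP-n cells and 78.7% of other cells in the authors' deposited table, with a log2 fold change of 0.80, against 1.92 in CGRP-e and 0.59 in CGRP-a. Gal, the galanin gene, was at 0.74 and Bdnf, a neurotrophin gene, at 0.59 in the authors' deposited table. The Calca fold of CGRP-n thus lay between those of CGRP-a and CGRP-e.

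Genes for the proteins that process and pack peptides were mostly higher, as in the other clusters named CGRP. Of 13 such genes in the table, 9 were higher, none was lower and 4 were not listed, with a median of 0.63. This stands beside 9.61% higher over all genes of the table. In CGRP-a 7 were higher, in CGRP-e 9 and in CGRP-z 7. Pam, which amidates the ends of peptides, was in 99.0% of CGRP-n cells and 56.0% of other cells in the authors' deposited table (0.93). Cadps, which primes dense-core vesicles for release, was at 0.88, and the granin gene Scg2 at 0.78 in the authors' deposited table. The convertase gene Pcsk2 was at 0.72 (98.7% and 41.0%) and Pcsk1 at 0.63 (79.5% and 21.2%) in the authors' deposited table. Pcsk1 was listed for only 5 clusters and was higher in CGRP-e (0.37), CGRP-z (0.29) and Heat.sen (0.56) too in the authors' deposited table.

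The promoters of these peptide genes were read for the cyclic AMP response element, a site bound by CREB that is well known in peptide genes. Its full form TGACGTCA reads the same on both strands. Of the 15 higher genes for peptides and their packaging, 13 had a promoter in the RefSeq sequences for GRCm38.p6, and within the 250 bases upstream of the start 3 of the 13 held the element. They are shown because Cartpt marks CGRP-n and Scg2 and Pcsk1 serve peptide release. Each runs 5′ to 3′ towards its gene, with the element in capitals.
Cartpt, chr13:99900684-99900933, minus strand: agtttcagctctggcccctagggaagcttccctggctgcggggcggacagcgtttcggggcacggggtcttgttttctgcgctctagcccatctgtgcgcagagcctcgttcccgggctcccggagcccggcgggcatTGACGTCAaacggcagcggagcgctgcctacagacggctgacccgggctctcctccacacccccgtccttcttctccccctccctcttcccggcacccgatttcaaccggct
Pcsk1, chr13:75089607-75089856, plus strand: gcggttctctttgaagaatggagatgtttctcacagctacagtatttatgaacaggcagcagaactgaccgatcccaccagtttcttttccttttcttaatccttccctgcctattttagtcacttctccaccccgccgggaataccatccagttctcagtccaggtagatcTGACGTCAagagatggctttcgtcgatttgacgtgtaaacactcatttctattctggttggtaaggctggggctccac
Scg2, chr1:79440027-79440276, minus strand: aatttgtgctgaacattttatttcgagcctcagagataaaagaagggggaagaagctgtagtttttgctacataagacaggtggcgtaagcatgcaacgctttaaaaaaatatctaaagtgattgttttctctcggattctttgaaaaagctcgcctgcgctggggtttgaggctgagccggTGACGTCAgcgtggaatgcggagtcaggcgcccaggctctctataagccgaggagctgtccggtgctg
The element began 112 bases upstream of the start in Cartpt, 78 in Pcsk1 and 68 in Scg2. Over all genes higher in CGRP-n it was in 28 of 678 promoters of that length (4.13%), over the lower genes in 14 of 303 (4.62%), over all genes of the table in 209 of 7147 (2.92%) and over all RefSeq promoters in 478 of 27025 (1.77%). The TATA letters TATAAA, searched on both strands, were in 9.29% of the higher, 10.2% of the lower, 8.63% of the promoters of all genes of the table and 14.3% of all RefSeq promoters. Higher and lower genes of CGRP-n thus held either motif at nearly equal shares. These are matches of letters, and no binding was measured.

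Receptors for growth factors came next. Of 11 in the table, 4 were higher and 2 lower in CGRP-n, beside 9.61% and 4.32% of all its genes. Besides Kit, the higher ones included Gfra3, the co-receptor for artemin (0.78, in 73.8% of CGRP-n cells and 33.4% of other cells in the authors' deposited table), and Ngfr, the low-affinity neurotrophin receptor (0.74, 85.2% and 23.1%). Ngfr was higher in 1 other cluster, CGRP-e (1.02, 97.8% in the authors' deposited table). The lower ones were Gfra2, the co-receptor for neurturin (-0.80, in 13.4% of CGRP-n cells against 23.6%), and Ret (-0.31) in the authors' deposited table. Ret was still in 79.2% of CGRP-n cells in the authors' deposited table, and its higher clusters included LTMR (1.13) and Non-peptidergic (0.80).

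Genes of BMP signalling beyond the receptor Bmpr1b went in both directions. Of 13 genes of the BMP and activin pathway in the table, 4 were listed for CGRP-n, beside 1565 of all 9229 genes. Smad1, which carries the signal of type I BMP receptors into the nucleus, was higher (0.37, in 98.3% of CGRP-n cells against 45.9% in the authors' deposited table). Id1, a well-known target of that signal, was lower (-0.69, 46.0% and 25.7%), and Id3 was at -1.54 without passing the filter in the authors' deposited table. Receptor and target genes therefore stood on opposite sides of 0, but the low fold of Id1 was not particular to CGRP-n. Id1 was lower in 4 of the 10 clusters named as neurons, CGRP-n among them, and higher only in Unknown.1 and Unknown.3. Id3 was likewise higher only in clusters named Unknown. Smad1 was higher in CGRP-a (0.91), CGRP-e (0.44) and CGRP-z (0.36) as well in the authors' deposited table.

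The genes of the axonal cytoskeleton were broadly higher, beside 9.61% of all genes of the table. Of 20 neurofilament, tubulin and microtubule genes in the table, 15 were higher in CGRP-n and none lower, against 12 in CGRP-a, 13 in CGRP-e and 9 in CGRP-z. The leading ones were Map1b, a microtubule protein of growing axons (1.30), Nefh (1.23), Gap43, a growth cone protein (1.13), and Nefm, the medium neurofilament subunit (0.98), in the authors' deposited table. Nefh was in 98.3% of CGRP-n cells and 37.3% of other cells in the authors' deposited table, and Nefl, the light subunit, was in 100% (0.68). Among the clusters named CGRP, Nefh was higher in CGRP-n alone in the table. CGRP-a and CGRP-e had no Nefh entry, CGRP-z had -0.40 (69.2% of cells, not past the filter), and Cold.sen had 1.23 (91.6%) in the authors' deposited table. Nefm was higher in CGRP-a (0.46) and CGRP-z (0.31) too, and Nefl in no other cluster named CGRP in the authors' deposited table. Prph, the intermediate filament of small-diameter neurons, was also higher in CGRP-n (0.31, 100% of cells in the authors' deposited table).

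Genes of the node of Ranvier and the axon initial segment gave a count of 7 higher of 14 in the table and none lower. CGRP-a, CGRP-e and CGRP-z each had 3 higher. Cntnap2, which holds potassium channels beside the node, led with 1.65 and was in 99.7% of CGRP-n cells against 39.7% in the authors' deposited table. It was higher in CGRP-a (2.11) and CGRP-e (1.52) as well in the authors' deposited table. Cntnap1, the paranodal partner of contactin on myelinated axons, was weaker (0.28, in 63.8% of CGRP-n cells and 16.2% of other cells in the authors' deposited table). It was listed for 3 clusters, and the other two were Cold.sen (0.58) and Heat.sen (0.42) in the authors' deposited table. Nfasc, the neurofascin gene, was at 0.28 (72.8% and 19.5%) and was likewise higher in Cold.sen (0.31), Heat.sen (0.48), LTMR (0.27) and the unnamed cluster Unknown.4 (1.65, in 34.2% of its cells) in the authors' deposited table. Ank3 and Ank2, which anchor channels to the membrane skeleton, were at 0.34 and 0.86, and the contactin genes Cntn1 and Cntn2 at 0.34 and 0.32 in the authors' deposited table. Cntnap1 and Nfasc were thus higher in CGRP-n and not listed for CGRP-a, CGRP-e or CGRP-z. Their folds of 0.28 lay near the entry limit of 0.25, so a missing entry may stand for a small difference. With a fold minimum of 0.5, 2 genes of this list stayed higher in CGRP-n. These were Cntnap2 and Ank2, which were also higher in CGRP-a, CGRP-e and CGRP-z.

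The sodium pump and its FXYD regulators went in both directions. Of 10 genes in the table, 4 were higher and 3 lower. Besides Fxyd7, the higher ones included the β subunit gene Atp1b1 (0.60, in 99.3% of CGRP-n cells and 56.0% of other cells in the authors' deposited table) and the regulator Fxyd6 (0.59, 84.9% and 34.6%). Fxyd2, the regulator of the same family, was lower at -2.59 although 100% of CGRP-n cells and 87.8% of other cells had its transcript in the authors' deposited table. Fxyd7 higher beside Fxyd2 lower was also the pattern of CGRP-a (1.29 and -2.45) and Cold.sen (1.13 and -3.68) in the authors' deposited table. SST had the reverse, with Fxyd7 at -2.12 and Fxyd2 higher in the authors' deposited table. Atp1b1 differed in sign from CGRP-a, where the authors' deposited table gave -2.36 and 37.3% of cells.

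Voltage-gated sodium channel genes included 6 higher and 1 lower of 14 in the table, beside 9.61% and 4.32% of all its genes. In CGRP-a 6 were higher, in CGRP-e 3 and in CGRP-z 7. The largest in CGRP-n was Fgf12, an intracellular protein that binds these channels (1.57, in 96.0% of CGRP-n cells and 46.2% of other cells in the authors' deposited table). CGRP-e had it as a lower gene (-0.58), though 96.1% of its cells carried the transcript, and LTMR had the larger fold (2.08) in the authors' deposited table. Scn9a, the gene of the pain-related channel Nav1.7, was in 100% of CGRP-n cells (0.43) in the authors' deposited table. Scn11a, the gene of Nav1.9, was lower (-0.39, in 97.7% of cells in the authors' deposited table), and lower in CGRP-e too (-0.30), but higher in CGRP-a (0.54).

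Calcium and pacemaker channels were higher without a lower member. Of 17 calcium channel genes in the table, 7 were higher, beside 9.61% of all its genes. CGRP-a had 8 higher, CGRP-e 7 and CGRP-z 6. The listed members had medians of 0.94, 1.01 and 1.21 there, against 0.73 in CGRP-n. Cacna2d1, the subunit bound by gabapentin, led in CGRP-n (1.47, in 100% of CGRP-n cells in the authors' deposited table), before Cacna1c (0.93). Both were higher in CGRP-a, CGRP-e and CGRP-z too. Cacna1e, which codes for an R-type channel, was in 85.2% of CGRP-n cells and 16.7% of other cells (0.73), and had 2.42 in CGRP-z in the authors' deposited table. Hcn2, a channel opened by hyperpolarization, was at 0.28 (78.5% of CGRP-n cells and 27.3% of other cells in the authors' deposited table). It was not listed for the other clusters named CGRP, but its fold lay near the entry limit of 0.25. A missing entry may therefore stand for a small difference. Hcn2 was also higher in Cold.sen, Heat.sen and LTMR.

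Potassium channel genes gave 9 higher, 3 lower and 24 not listed of 36 in the table, beside 9.61% higher and 4.32% lower over all its genes. In CGRP-a 14 were higher, in CGRP-e 12 and in CGRP-z 9. With a fold minimum of 0.5, 4 stayed higher in CGRP-n. The higher ones included the Kv4 partners Dpp6 (1.14, in 100% of CGRP-n cells) and Kcnip1 (0.88, in 81.5% against 21.1%), and the leak channel gene Kcnk3 (0.85, in 84.9% against 20.5%), in the authors' deposited table. Kcnma1, the BK channel gene, was lower (-0.28), as were Dpp10 (-0.40) and Kcnab1 (-0.47) in the authors' deposited table. All 3 were nevertheless in a larger share of CGRP-n cells than of other cells. The shares were 77.2% and 34.7% for Kcnma1, 54.7% and 31.0% for Dpp10, and 50.3% and 23.7% for Kcnab1 in the authors' deposited table. Kcnmb2, an auxiliary subunit of the BK channel, was among the leading genes of the cluster in the authors' deposited table (1.33, in 95.6% of CGRP-n cells and 23.0% of other cells). It was also higher in CGRP-a, CGRP-e, CGRP-z, Cold.sen and Heat.sen. The BK pore gene and its auxiliary gene were thus called in opposite directions by fold. Both were in a larger share of CGRP-n cells, and the fold of Kcnma1 lay near the entry limit of 0.25.

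Channels that turn stimuli into current were 5 higher and none lower of 19 in the table, beside 9.61% higher over all its genes. CGRP-a, CGRP-e and CGRP-z each had 4 higher. Trpm3, a heat-activated channel, was in 99.0% of CGRP-n cells and 44.1% of other cells in the authors' deposited table (0.77). Trpa1, the channel of irritant chemicals, was in 45.0% and 16.1% (0.62) and was lower in CGRP-a, where 6.5% of cells had it (-0.30) in the authors' deposited table. It was higher in 1 other cluster, Non-peptidergic (0.41, in 95.6% of cells in the authors' deposited table). Piezo2, the channel of touch that opens on pressure, was in 71.8% of CGRP-n cells and 39.4% of other cells (0.50), with 0.39 in CGRP-e and 2.54 in LTMR in the authors' deposited table. Trpv1, the heat and capsaicin channel, was at 0.32 (84.9% and 35.1% in the authors' deposited table), against 0.82 in CGRP-e, 1.67 in CGRP-z and 2.98 in Heat.sen. CGRP-n thus carried the Trpa1 and Piezo2 calls together, which in the table it shared with Non-peptidergic (Piezo2 1.06).

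**Figure D3:**
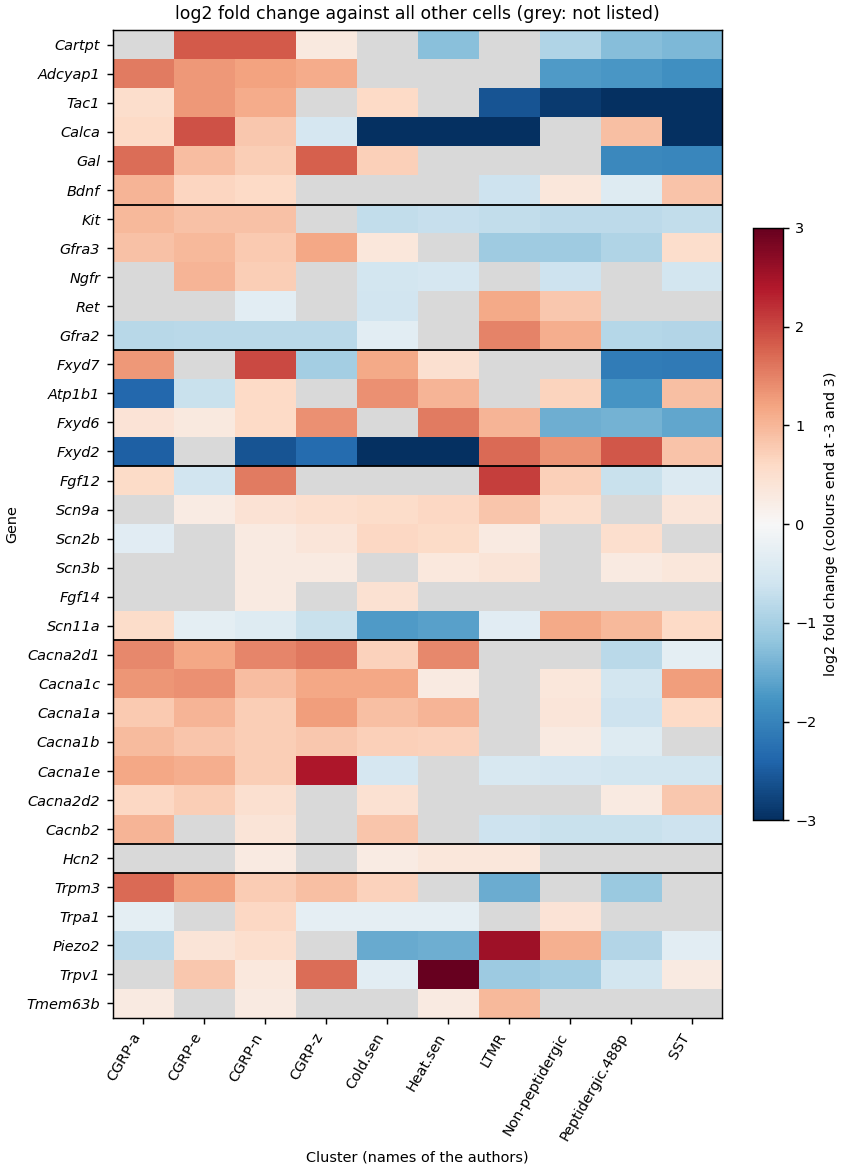
Colour gives the deposited log2 fold change of genes listed for CGRP-n from 7 gene groups (from top to bottom: peptides, growth factor receptors, sodium pump, sodium channels, calcium channels, HCN channels, transduction channels) across the 10 clusters named as neurons; red is above 0, blue below 0 and grey not listed, and colours end at -3 and 3. The CGRP-n column is red for all peptide, calcium, HCN and transduction genes shown and blue for Ret, Gfra2, Fxyd2 and Scn11a.

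Receptors for transmitters and inhibitory signals had 1 lower gene. Of 14 glutamate receptor genes in the table, 6 were higher, led by Gria4 (1.14, in 94.6% of CGRP-n cells and 32.3% of other cells in the authors' deposited table), an AMPA receptor subunit. Grik1, a kainate receptor subunit, was lower at -1.29 (54.4% and 27.6%), as in CGRP-a (-1.23), and was at 3.28 in Non-peptidergic in the authors' deposited table. Of 10 GABA and glycine receptor genes 4 were higher and none lower, led by Gabrg3 (0.75, 59.4% and 17.8%) in the authors' deposited table. Of 13 opioid, cannabinoid, somatostatin and other Gi-coupled receptors 6 were higher and none lower. Npy1r, the Y1 receptor of neuropeptide Y, was in 80.9% of CGRP-n cells and 23.0% of other cells in the authors' deposited table, and its 1.20 compared with 0.42 in CGRP-a, 0.61 in CGRP-e and 0.72 in CGRP-z. The cannabinoid receptor gene Cnr1 was at 0.70 and the µ opioid receptor gene Oprm1 at 0.45 (94.6% and 37.1%) in the authors' deposited table. Oprm1 was at 1.21 in CGRP-a and 1.03 in CGRP-e in the authors' deposited table.

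The machinery of vesicle release gave 20 higher genes of 32 in the table and none lower, against 17 in CGRP-a, 20 in CGRP-e and 16 in CGRP-z. Rims2, an active zone scaffold, was at 1.32 (99.0% of CGRP-n cells) and Syn2, a synapsin, at 0.85 (99.7%) in the authors' deposited table. Sv2b, a vesicle protein, was in 56.7% of CGRP-n cells and 12.4% of other cells in the authors' deposited table (0.74). It was not listed for CGRP-a or CGRP-e, but was higher in CGRP-z, Cold.sen and Heat.sen too. The vesicular glutamate transporter gene Slc17a6 was at 0.55 and in 100% of CGRP-n cells in the authors' deposited table.

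Adhesion and guidance molecules were frequent among the leading genes. Of 36 in the table, 16 were higher, 1 was lower (Plxnc1, a semaphorin receptor, -0.35) and 1 was not past the filter, with a median of 0.85 among those listed. CGRP-e had 15 higher, CGRP-z 14 and CGRP-a 6. Nrxn3, a presynaptic adhesion protein, was in 100% of CGRP-n cells and 37.3% of other cells in the authors' deposited table (1.71), and Negr1, of the IgLON family, in 87.6% and 23.4% (1.53). Epha5, an ephrin receptor, was at 1.11 (86.6% and 18.2%), with 1.21 in CGRP-e and no entry for CGRP-a in the authors' deposited table. Unc5c, a netrin receptor, was at 0.90 (82.2% and 14.8%), listed otherwise for CGRP-e (0.70) and Cold.sen (0.25) in the authors' deposited table. Negr1 was not listed for CGRP-a, CGRP-e or CGRP-z and was at 2.24 in Cold.sen and 1.96 in Heat.sen in the authors' deposited table.

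The genes of largest fold change beyond these lists were Trappc3l, a relative of a vesicle tethering subunit, Lingo2, a leucine-rich repeat membrane protein, Cntn5, a contactin, Thy1, a surface glycoprotein of neurons and T cells, Hopx, a homeodomain protein that does not bind DNA, and Thsd7a, a thrombospondin repeat protein. Trappc3l was in 76.8% of CGRP-n cells and 12.9% of other cells in the authors' deposited table (1.82), and higher in Heat.sen (0.66). Lingo2 had the widest gap in cells, 98.7% against 17.4% (1.79), and CGRP-e exceeded it with 2.27 and 100% in the authors' deposited table. Cntn5 was in 63.4% of CGRP-n cells and 6.1% of other cells in the authors' deposited table (1.69), and was listed otherwise for Heat.sen (1.91) and Cold.sen (0.43). Thy1 was called in different directions among the clusters named CGRP. It was in 70.1% of CGRP-n cells and 7.7% of other cells in the authors' deposited table (1.56), against 3.4% of CGRP-a cells (-0.39, lower) and 1.9% of CGRP-z cells (-0.38, not past the filter). Hopx was at 1.48 (90.3% and 28.0%), with 0.32 in CGRP-e and 0.88 in LTMR in the authors' deposited table.

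After Lingo2, the widest gaps in cells among the higher genes belonged to Shf, an adaptor protein gene (94.6% of CGRP-n cells against 16.2% in the authors' deposited table), Dbpht2 (95.6% and 22.0%), Clmp, an adhesion protein gene (94.0% and 20.6%), and Prkcb, the gene of protein kinase C beta (86.6% and 13.8%). Prkcb also had a large fold (1.24), about that of Nefh, and the authors' deposited table gave 0.63 in CGRP-e and 0.49 in Cold.sen. Ache, the gene of acetylcholinesterase, was in 98.0% and 26.7% in the authors' deposited table (0.71). These wide gaps went with log2 fold changes from 0.37 for Zdhhc22, a palmitoyltransferase gene, to 1.79 for Lingo2.

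Some genes of moderate fold had a large share of their positive cells in CGRP-n. The share of all transcript-positive cells that were CGRP-n cells was 42.4% for Epha6, an ephrin receptor gene, 38.6% for Cidea, a lipid droplet protein gene, 38.5% for Cdh12, a cadherin gene, 33.5% for Syndig1l and 33.2% for Serpinb1b, a protease inhibitor gene, computed from the deposited shares. Epha6 was in 29.9% of CGRP-n cells and 1.6% of other cells in the authors' deposited table (0.41), and Cdh12 in 30.2% and 1.9% (0.30). Cidea was in 65.4% and 4.1% (0.60), with 25.0% of Cold.sen cells in the authors' deposited table. Syndig1l was in 60.1% and 4.7% in the authors' deposited table (0.42). Epha6, Cdh12 and Syndig1l were listed for no other cluster, whereas Serpinb1b was higher in 1 other cluster named as neurons (29.4% of its cells) and Mrap2, which assists melanocortin receptors, in CGRP-z (64.5%, against 39.6% in CGRP-n) in the authors' deposited table. Even for these genes more than 50% of the positive cells lay outside CGRP-n, so none marked it alone. Serpinb1b has close relatives in the genome, and how reads shared between copies were counted is not given, which holds for ribosomal protein genes too.

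Hox genes of the posterior groups were a further set, which apart from Hoxd10 and Hoxd11 was chosen after its values were seen. Hox genes keep a record of position along the body axis, and the groups of higher number belong to its posterior part. Of 17 Hox genes in the table, 6 were listed for CGRP-n, all 6 were higher, and all 6 were of groups 9 to 11. Hoxa9 was in 72.1% of CGRP-n cells and 17.2% of other cells in the authors' deposited table, Hoxa10 in 67.8% and 10.7%, Hoxd9 in 64.4% and 12.3%, and Hoxc10 in 53.7% and 8.9%. Hoxd11 was in 45.0% and 3.6% and Hoxd10 in 43.3% and 3.7% in the authors' deposited table. Their log2 fold changes were small, from 0.26 for Hoxc10 to 0.46 for Hoxa10 and Hoxd11. Cells with Hoxd11 or Hoxd10 were CGRP-n cells in 33.0% and 31.5% of cases.

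The other neuron clusters gave other Hox counts. Heat.sen had 8 higher Hox genes, 5 of them of group 9 or above, and shared Hoxa9, Hoxa10, Hoxc10 and Hoxd10 with CGRP-n. CGRP-a had Hoxd8 higher and Hoxa7 lower, CGRP-e had Hoxd1 higher and CGRP-z had none listed. Hoxd11 was listed for no cluster but CGRP-n. From which spinal levels the cells came was not recorded in the table.

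**Figure D4:**
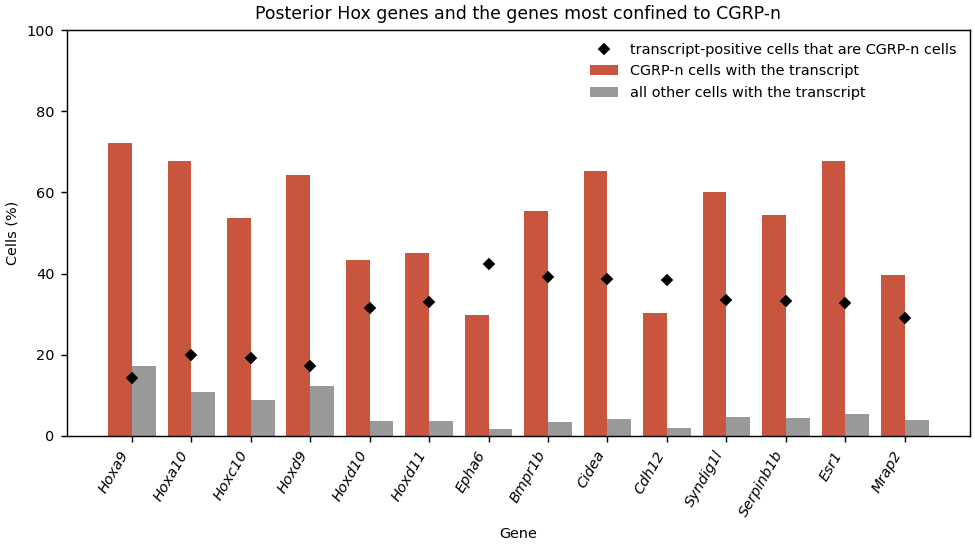
Bars give the percentage of CGRP-n cells (red) and of all other cells (grey) with the transcript for 6 posterior Hox genes (left) and 8 other genes with a large share of their positive cells in CGRP-n (right); diamonds give the percentage of all transcript-positive cells that were CGRP-n cells. Hoxa9 has the tallest red bar, at 72.1%, and Epha6 the highest diamond, at 42.4%.

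Esr1, the gene of estrogen receptor α, was in 67.8% of CGRP-n cells and 5.5% of other cells in the authors' deposited table (1.03). An estimated 32.7% of Esr1-positive cells were CGRP-n cells. Heat.sen had more, with 2.06 and 90.8% of its cells in the authors' deposited table. Among the genes named after their values were seen, Greb1l, a relative of the estrogen-induced gene Greb1, was at 0.62 (59.1% of CGRP-n cells) and was listed otherwise for CGRP-e (0.35) in the authors' deposited table. The consensus estrogen response element, searched on both strands, was found in 0 of the 7147 promoters of the table's genes and in 18 of 27025 RefSeq promoters, so these windows offered no comparison. The ion channel genes Htr3a, the serotonin-gated receptor (0.77, 41.9% of CGRP-n cells against 5.0%), and Chrnb3, a nicotinic subunit (0.29, 43.3% against 6.8%), were also chosen after their values were seen, as was Tafa2 (0.91, 68.8% against 8.1%), in the authors' deposited table. Htr3a was listed otherwise for CGRP-e (0.37) and Chrnb3 for no other cluster in the authors' deposited table.

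Among 28 sensory neuron transcription factors in the table, 8 were higher and 1 lower, beside 9.61% and 4.32% of all its genes. In CGRP-a 11 were higher, in CGRP-e 6 and in CGRP-z 4. With a fold minimum of 0.5, 2 stayed higher in CGRP-n. Pou4f3, a POU-domain factor, was in 83.6% of CGRP-n cells and 13.9% of other cells in the authors' deposited table (0.86), close to its 0.89 in CGRP-a and above its 0.34 in CGRP-e. Onecut2 was in 37.9% of CGRP-n cells (0.45) but in 2.7% of CGRP-a cells, where it was lower (-0.28) in the authors' deposited table. Isl2, a LIM-homeodomain factor, was the lower one (-0.31, in 95.6% of CGRP-n cells in the authors' deposited table), while its relative Isl1 was higher (0.28, 99.0%). Bcl11a was in 80.2% of CGRP-n cells and 14.9% of other cells (0.34) in the authors' deposited table.

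Energy metabolism was called in part. All 10 mitochondrially encoded genes listed were higher, from 0.26 to 0.68, while of 33 oxidative phosphorylation genes in the table, 9 were higher, of which Cox6c was the 1 encoded in the nucleus. Of 19 glycolysis genes 7 were higher and 3 lower. Eno2, the neuronal enolase gene, was at 0.67 and the neuronal glucose transporter gene Slc2a3 at 0.52 in the authors' deposited table. Slc2a1, the glucose transporter of endothelial and glial cells, was lower (-0.65, in 64.4% of CGRP-n cells) in the authors' deposited table.

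The proteasome, on which the sort was based, gave little in CGRP-n. None of the 14 core particle genes in the table was listed, beside 1565 of all 9229 genes. CGRP-a and CGRP-z had none of the 14 listed either, and CGRP-e had 1, which was not past the filter. Of 41 proteasome genes in the table, the 1 listed for CGRP-n was Psmd1, a subunit of the regulatory cap. It was at 0.31, in 99.3% of CGRP-n cells and 56.0% of other cells in the authors' deposited table. Gpm6b, a membrane glycoprotein gene tied to the membrane proteasome, was lower (-1.53, in 7.0% of CGRP-n cells and 18.6% of other cells in the authors' deposited table), and its relative Gpm6a was not listed. Gpm6b was lower in LTMR (-1.55), Non-peptidergic (-1.59) and SST (-1.59) too in the authors' deposited table. In total it was lower in 7 clusters named as neurons, CGRP-n among them, and higher only in Unknown.2 and Unknown.4. The low fold of Gpm6b was therefore not particular to CGRP-n.

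**Figure D5:**
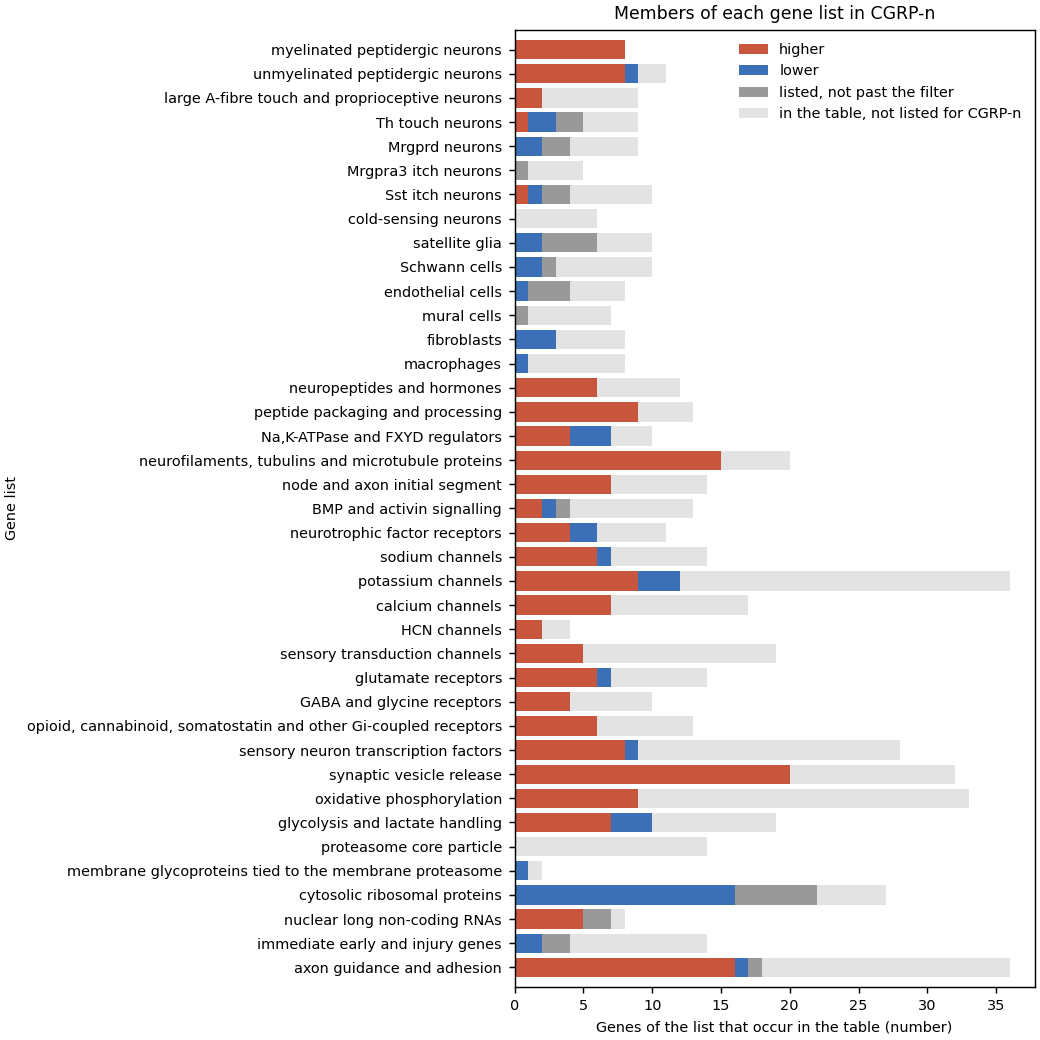
Bars give, for each of 39 gene lists, the number of members in the table that were higher (red), lower (blue), listed without passing the filter (dark grey) or not listed (light grey) for CGRP-n. The peptide, cytoskeleton, node and vesicle release lists have red and light grey parts only, and the lists of other cell types have no red part.

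Ribosomal protein genes were mostly lower. Of 55 listed for CGRP-n, 36 were lower, 18 were not past the filter and 1 was higher (Rpl22l1, named after its value was seen), with log2 fold changes from -0.72 to 0.30. Each was in at least 98.3% of CGRP-n cells in the authors' deposited table. In a list of 27 such genes 16 were lower in CGRP-n, 15 in CGRP-a, 17 in CGRP-e and none in CGRP-z. Of 14 immediate early and injury genes, 2 were lower (Fosb at -0.88 and Fosl2 at -0.28), and Atf3, the gene of an injury-induced factor, was at -0.65 without passing the filter, in 86.6% of CGRP-n cells and 57.1% of other cells in the authors' deposited table.

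Several of the 10 most negative genes that were also in fewer cells are known from other cells of the ganglion. The largest decrease among them was that of Sparc, a matrix protein gene of glia and stroma (-3.18, in 15.8% of CGRP-n cells and 36.1% of other cells in the authors' deposited table). Timp3, a protease inhibitor gene (-2.01), Ifitm3, an interferon-induced gene (-1.96), the collagen gene Col1a2 (-1.57) and the chemokine gene Cxcl12 (-1.47) followed in the authors' deposited table. Acpp, the acid phosphatase gene of non-peptidergic neurons, was among them as well (-1.51, 25.2% and 36.5%) in the authors' deposited table.

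Markers of satellite glia, Schwann cells, endothelial, mural and macrophage cells and fibroblasts were taken as a measure of transcripts from other cell types. Of 51 such genes 18 were listed for CGRP-n, all with folds below 0, of which 9 were lower, 9 were not past the filter and none was higher. They were in 0.3% (Cdh5, of endothelial cells) to 94.3% (Glul, of satellite glia) of CGRP-n cells, and 8 of the 18 were in a larger share of CGRP-n cells than of other cells in the authors' deposited table. Apoe, a lipid carrier gene of satellite glia, was in 81.9% of CGRP-n cells and 49.7% of other cells with a log2 fold change of -4.77 in the authors' deposited table. The myelin gene Mbp was in 67.4% and 31.7% (-1.37, lower), and the fibroblast gene Dcn in 61.7% and 19.9% (-0.76, lower) in the authors' deposited table. None of the listed markers was at 0%. Transcripts known from other cell types were thus found in CGRP-n cells at mean levels below those of all other cells, and their part in the calls was not tested.

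CGRP-e was compared with CGRP-n gene by gene, over the 1077 genes listed for both. The 2 comparisons share most of their other cells, so the values stand side by side without a test. The share of cells in CGRP-n minus that in CGRP-e had a median of -0.2 percentage points, and 848 genes (78.7%) lay within 5 percentage points. The genes more frequent in CGRP-n included Ust, a sulfotransferase gene (83.2% of CGRP-n cells and 40.7% of CGRP-e cells in the authors' deposited table, with folds of 0.72 and -0.43), Gsta4, a detoxifying enzyme gene (58.4% and 11.9%, 0.44 and -0.33), and Cntn1 (45.3% and 12.5%, 0.34 and -0.51). Each of these had folds on opposite sides of 0 in the 2 clusters. Zfp521, a zinc finger gene, was more frequent in CGRP-n (46.3% and 10.8% in the authors' deposited table) and still lower there (-0.31).

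In the other direction, the widest gap was that of Nrp1, a receptor for semaphorins and vascular growth factor, in 37.2% of CGRP-n cells and 92.0% of CGRP-e cells in the authors' deposited table. Its fold was -0.40 in CGRP-n, not past the filter, and 0.32 in CGRP-e. Tmtc2 was in 41.6% and 79.8% and Rcan2, a calcineurin regulator gene, in 45.0% and 82.8% in the authors' deposited table. Hgf, the gene of hepatocyte growth factor, was higher in both with 42.3% and 77.0% of cells (0.42 and 0.72), as was Ptgir with 59.1% and 93.1% (0.31 and 0.65) in the authors' deposited table. Over the 484 genes listed for all 4 clusters named CGRP, the median share of cells was 96.6% in CGRP-n and 97.8% in CGRP-e in the authors' deposited table.

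Long non-coding RNAs of the nucleus gave 5 higher of 8 in the table, led by Meg3 (1.30) and Snhg11 (1.15), and Malat1 was at -0.33 without passing the filter in the authors' deposited table. Genes higher in CGRP-n were long. Their median span in the GENCODE M21 annotation was 75.3 kb (881 of 887 genes with a value), against 32.5 kb for lower genes and 31.6 kb for all genes of the table. The medians of higher genes were 78.9 kb in CGRP-a, 95.7 kb in CGRP-e and 104 kb in CGRP-z. Long spans were therefore common to the 4 clusters named CGRP.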

How the data were processed

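Single-cell RNA sequencing libraries of NMP-positive and NMP-negative cells (4 lanes each of 1 library, per the labels) were represented by 1 marker table of 20 clusters. Seurat is named in the submitters' processing notes. How reads were aligned, against which build and annotation, and how cells were filtered, cleared of doublets and clustered is not given in the sources used. Per the file headers, the authors deposited a p-value, its adjusted form, a mean log2 fold change and the fraction of cells with the transcript in the cluster and in all other cells. Adjustment multiplied each p-value by 32285 (up to 1). Fractions are printed as percentages. The deposited p-values treat cells as units, and there are no replicates, so they served as a filter at 0.05.

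The weight of each cluster was solved by least squares over 6748 genes whose fractions differed by at least 5 percentage points, and gave each gene's share of transcript-positive cells in CGRP-n. The steps were tested on simulated data (Python 3.11.15, numpy 2.4.6, pandas 2.3.3). Promoters came from RefSeq (GRCm38.p6) and gene spans from GENCODE M21.

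Members, the 39 gene lists (549 genes, 507 in the table) and tests were chosen with earlier results of these data known. Genes were named by rule: the 4 markers; the 15 of largest fold change among higher genes in at least 25% of cells and more frequent by at least 20 percentage points, predicted genes left out; the 10 each of largest difference in cells, most confined, and most negative among less frequent genes; the 10 more and 5 less frequent than in CGRP-e; and up to 8 per list. Other minimum folds, fractions, directions and p-value filters were tried. Some list members are named beyond 8, to account for a whole list, and a few members are not reported here.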

Additional observations from a re-analysis of the deposited data

How the results depend on the processing

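Calls depended on the minimum fold. With an absolute log2 fold change of at least 0.5, 315 genes were higher and 114 lower, and at 1 or more 56 and 40, against 887 and 399. Requiring a larger share of cells in the same direction left 78 lower genes and all 887 higher ones. An adjusted p under 1e-10 left 882 higher and 99 lower genes, and Benjamini-Hochberg adjustment over the 32285 genes gave 887 and 630, so the lower calls moved more. The estimated share of cells was 3.79% under each gene selection tried. Of 39 lists, 26 had a higher member, and the count of higher members moved by over 1.5 times in 14 with the fold minimum of 0.5 and in none with the direction rule. Cell numbers and depth are not given, the precision of shares was not estimated, and there is no replicate to leave out. No paired analysis was possible because the table has no sample columns and the numbered samples are lanes of 1 library.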
